A study of Mus musculus with 16 samples.

Results

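The 10 genes described here mark hepatic stellate cells and pericytes: Lrat, Des, Dcn, Reln, Hand2, Colec10, Kcnj8, Abcc9, Pdgfrb and Rgs5. They were found by name, as every probe other than a control whose annotated gene symbol was one of the 10, which gave 18 of the 41174 probes and 10 of the 28095 gene names on the array. All 18 probes and all 10 genes passed the filter on dim probes, among 35770 probes and 24165 genes that did. The genes were proposed with differences between the sorted cell populations in view. Their differences between populations are therefore given below as a description without a test, and the DDC samples tested here also entered those differences.

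RNA was measured in liver cells of c129/S3 mice, sorted by flow cytometry for 2 surface antigens, MIC1-1C3 (M) and CD133 (133), the product of Prom1. M+133+ cells carried both antigens and M-133- cells carried neither, so that the M-133- cells were a mixture defined only by what they lacked. Mice either received 0.1% (w/w) 3,5-diethoxycarbonyl-1,4-dihydrocollidine (DDC) in the diet for 2 weeks, which injures bile ducts and brings on a ductular reaction, or were left untreated. The 16 arrays of amplified cDNA held 14 samples: M+133+ cells after DDC (n = 4), M+133+ cells of untreated livers (n = 4), M-133- cells after DDC (n = 4) and M-133- cells of untreated livers (n = 2). All mice were of 1 strain with no transgene named in the labels, and their age and any pooling of animals were not given in the sources used here. The p-values therefore measure the spread between these samples, which may in part be technical.

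Stellate cells lie between hepatocytes and the sinusoidal endothelium and hold most of the vitamin A of the liver as retinyl esters in lipid droplets. They are the pericytes of the liver sinusoid, and after injury they can turn into contractile, collagen-making myofibroblasts. Pericytes and smooth muscle cells of other vessels share part of their genes, among them the receptor for platelet-derived growth factor B and the vascular ATP-sensitive potassium channel. Portal fibroblasts, which surround bile ducts, are a second source of collagen in cholestatic injury.

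The Des and Dcn probes are shown because they read the end of the coding sequence, with the stop codon in capitals. The Des probe was printed in 10 spots per array and lies on mm9 at chr1:75363404-75363629, plus strand, in an interval longer than the probe itself. The Dcn probe lies at chr10:96980233-96980292, plus strand.
Des: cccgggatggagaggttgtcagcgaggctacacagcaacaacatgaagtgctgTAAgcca
Dcn: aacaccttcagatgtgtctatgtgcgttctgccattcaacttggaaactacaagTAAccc
Both Hand2 probes are shown because they share the 23 bases in capitals, so that they are not independent readings of the gene. They lie on the plus strand at chr8:59801251-59802610 for the brighter probe, which was used, and at chr8:59801214-59802573 for the other.
Hand2, brighter probe: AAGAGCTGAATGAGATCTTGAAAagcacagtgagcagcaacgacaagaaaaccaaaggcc
Hand2, other probe: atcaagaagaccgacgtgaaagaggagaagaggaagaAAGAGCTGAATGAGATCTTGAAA

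Kcnj8 and Abcc9 encode the pore and the regulatory subunit of 1 potassium channel and are neighbours on chromosome 6, with 0 genes between them in RefSeq (GRCm38.p6). The 250 bases before a transcript start are shown for both, read from RefSeq on the minus strand, at chr6:142571615-142571864 for Kcnj8 and chr6:142702275-142702524 for Abcc9. E-boxes (CANNTG), the motif bound by basic helix-loop-helix factors such as Hand2, are in capitals.
Kcnj8: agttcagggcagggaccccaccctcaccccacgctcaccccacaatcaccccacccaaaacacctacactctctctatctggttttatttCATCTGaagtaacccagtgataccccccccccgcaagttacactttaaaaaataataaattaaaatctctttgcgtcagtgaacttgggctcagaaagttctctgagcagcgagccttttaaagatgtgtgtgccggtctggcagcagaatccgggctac
Abcc9: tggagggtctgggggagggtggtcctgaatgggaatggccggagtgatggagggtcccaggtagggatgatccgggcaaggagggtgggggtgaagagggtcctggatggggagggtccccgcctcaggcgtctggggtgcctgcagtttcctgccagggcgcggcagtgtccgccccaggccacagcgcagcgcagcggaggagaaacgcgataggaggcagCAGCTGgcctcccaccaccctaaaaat
Windows of this kind were found for 7 of the 10 genes. An E-box on either strand was in 6 of the 7, against 66.2% of all 32851 such windows. The GC box GGGCGG was in 5 of the 7, against 32.7% of all windows. The TATA box TATAAA was in 0 of the 7, against 12.4%, and the CArG box, the motif of serum response factor, in 0 of the 7, against 1.47%. No overlap between motifs was removed.

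Levels below are log2 processed signals over the 75th percentile of the same array, so that 0 is that percentile, and each difference is on this log2 scale. That percentile ran from 602.8 to 2732.2 intensity units over the 16 arrays, and 60.3% to 77.3% of probes were called well above background by the scanner software. Prom1, which the sort selected, stood between 0.81 and 2.23 in M+133+ DDC samples and between 1.13 and 1.82 in M+133+ untreated samples. It stood between -8.63 and -3.52 in M-133- DDC samples and at -7.74 and -8.35 in M-133- untreated samples. The 2 repeat arrays of M-133- untreated sample 2 differed by a median of 1.77 over the 10 genes and by up to 6.13, for Lrat, whereas those of M+133+ untreated sample 1 differed by a median of 0.81. Their mean was used.

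**Figure D1:**
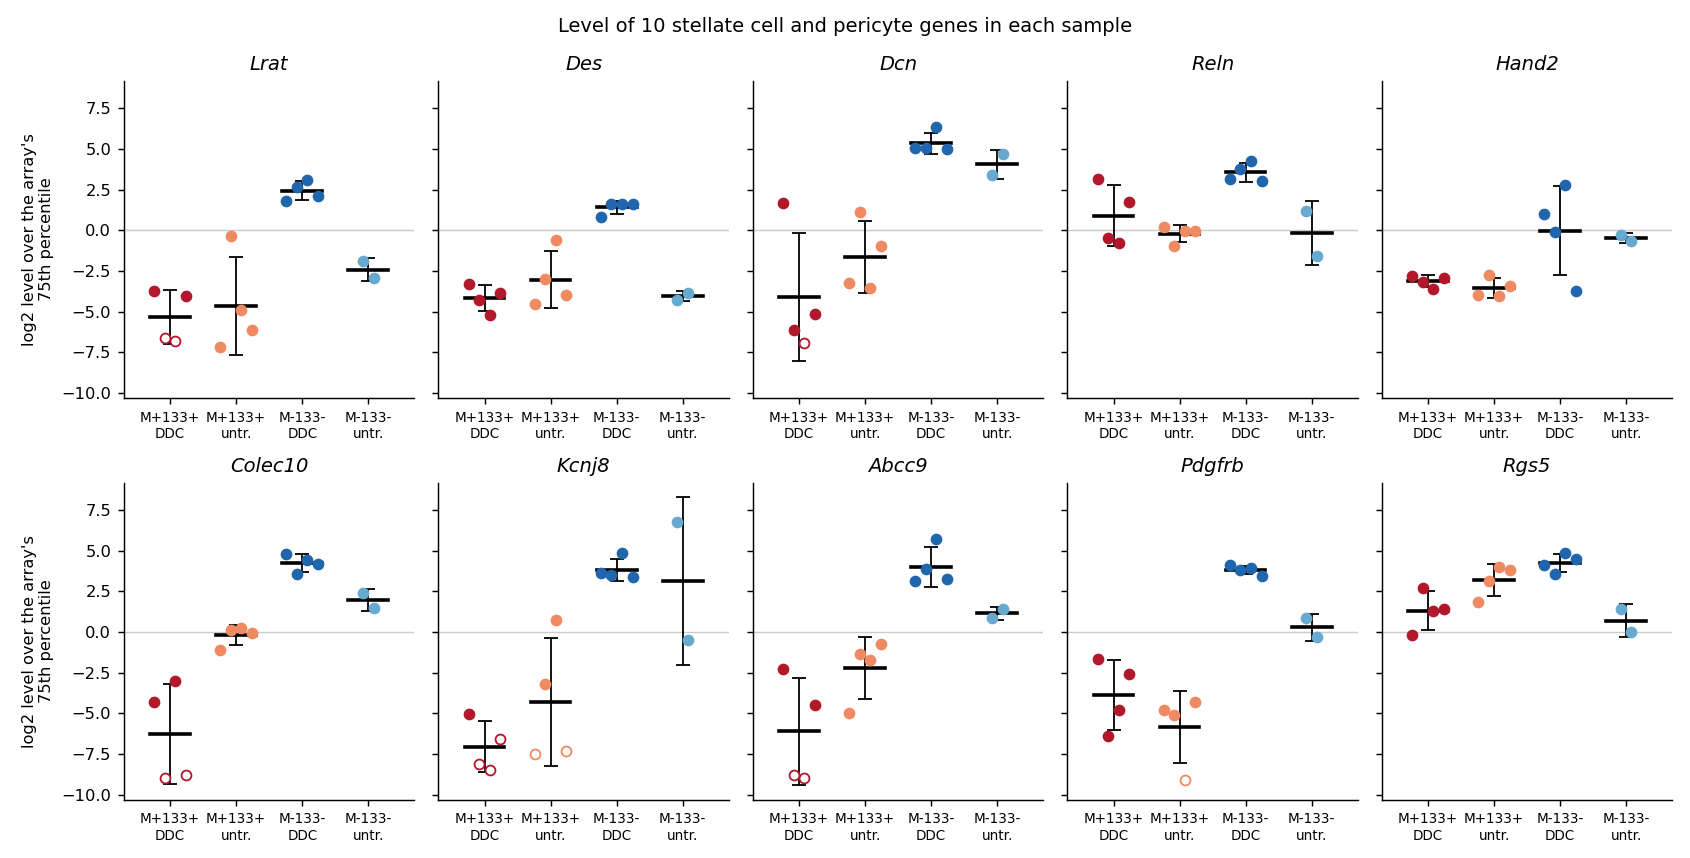
Level of each of the 10 genes in each of the 14 samples (1 point per sample; log2 over the array's 75th percentile; black line, mean; bars, SD; open points, not well above background). The M-133- DDC samples hold the highest group mean for every gene, and Rgs5 alone stands above 0 in most M+133+ samples too.

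By the brighter Lrat probe and the Des probe, the vitamin A and cytoskeleton genes separated the M-133- cells of DDC-fed mice from all other groups. Lrat encodes lecithin retinol acyltransferase, which makes retinyl esters, and its level was 1.79, 2.66, 3.12 and 2.14 in M-133- DDC samples 1 to 4, against -1.91 and -2.92 in M-133- untreated samples 1 and 2. Among M+133+ samples it stood at -3.71, -6.65, -6.83 and -4.06 after DDC, against -7.19, -0.38, -4.91 and -6.16 in untreated samples. By this brighter probe every M-133- DDC sample was above every other sample, and untreated M+133+ sample 2, at -0.38, was the highest M+133+ sample. The other Lrat probe disagreed. It stood at 2.91, -3.02, -4.35 and 1.31 in M-133- DDC samples, against -5.91, not well above background, and -2.54 in M-133- untreated samples. Untreated sample 2 thus lay above DDC samples 2 and 3 by the other probe. Des encodes desmin, the intermediate filament of muscle and of rodent stellate cells. It was at 0.79, 1.60, 1.63 and 1.63 in M-133- DDC samples, against -4.28 and -3.85 in M-133- untreated samples. Its level in M+133+ cells was -3.31, -4.29, -5.23 and -3.83 after DDC, against -4.54, -2.99, -0.61 and -4.01 in untreated samples. The 4 M-133- DDC samples lay within 1 log2 unit of each other and above all others, and the untreated M-133- samples lay among the M+133+ samples.

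Among the secreted proteins, the brighter Dcn probe and the Colec10 probe stood above 0 in all M-133- samples. Dcn encodes decorin, a proteoglycan that binds collagen fibrils. Its level was 5.05, 5.07, 6.33 and 4.99 in M-133- DDC samples, against 3.43 and 4.67 in M-133- untreated samples. In M+133+ samples it was 1.67, -6.13, -6.93 and -5.14 after DDC, against -3.24, 1.14, -3.54 and -0.95 in untreated samples. The M+133+ DDC group spanned 8.60 log2 units for Dcn, the widest of any gene there, because sample 1 was far above the other 3. The other Dcn probe disagreed in untreated cells. This probe is annotated to another transcript record, at chr10:96943347-96943406, and whether it reads the same transcript was not tested. It stood at -7.72, -2.16, -2.29 and 0.41 in M-133- DDC samples, against -7.67 and -7.66, not well above background, in M-133- untreated samples. Between populations in untreated livers it differed by 0.27, against -5.70 by the brighter probe. Colec10 encodes collectin liver 1, a soluble lectin of innate immunity. It stood at 4.81, 3.54, 4.41 and 4.2 in M-133- DDC samples, against 2.42 and 1.49 in M-133- untreated samples. In M+133+ cells it was -4.32, -8.95, -3.00 and -8.82 after DDC, against -1.10, 0.12, 0.23 and -0.07 in untreated samples. The 4 groups did not overlap for Colec10. Reln encodes reelin, an extracellular glycoprotein that acts through lipoprotein receptors. It was at 3.14, 3.79, 4.28 and 3.05 in M-133- DDC samples, against 1.21 and -1.57 in M-133- untreated samples. It stood at 3.14, -0.49, -0.76 and 1.73 in M+133+ DDC samples, against 0.21, -0.99, -0.04 and -0.03 in M+133+ untreated samples. The highest M+133+ DDC sample for Reln reached the level of the M-133- DDC samples. The other Reln probe, annotated to another transcript record at chr5:21633922-21633981, was not well above background in either M-133- untreated sample.

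Hand2, a basic helix-loop-helix transcription factor of mesenchyme, varied most among the M-133- DDC samples. It was at 1.00, -0.11, 2.78 and -3.74 there, against -0.26 and -0.67 in M-133- untreated samples. In M+133+ samples it lay between -3.63 and -2.78 after DDC, against -4.04 and -2.74 in untreated samples. The other Hand2 probe gave -1.62, -2.15, 2.87 and -4.76 in the M-133- DDC samples, so that both probes put sample 3 highest and sample 4 lowest.

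Both channel subunits were bright after DDC in M-133- cells and dim in M+133+ cells, but the probes of Kcnj8 disagreed in untreated M-133- cells. Kcnj8, the pore subunit, stood at 3.63, 3.48, 4.83 and 3.39 in M-133- DDC samples, against 6.78 and -0.51 in M-133- untreated samples. In M+133+ cells it was -5.05, -8.09, -8.49 and -6.57 after DDC, against -7.48, -3.17, 0.74 and -7.33 in untreated samples. The other Kcnj8 probe was at 2.88, 1.26, 2.88 and 2.12 in M-133- DDC samples, against -0.93 and -8.48 in M-133- untreated samples. The brighter probe thus placed untreated sample 1 above the DDC samples and the other probe placed it below them. Abcc9, the sulfonylurea receptor subunit, was at 3.15, 3.86, 5.74 and 3.25 in M-133- DDC samples, against 0.88 and 1.42 in M-133- untreated samples. It was at -2.25, -8.80, -8.95 and -4.47 in M+133+ DDC samples, against -4.98, -1.34, -1.72 and -0.77 in M+133+ untreated samples. All 3 Abcc9 probes placed the M-133- DDC samples above the untreated ones.

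The receptor Pdgfrb and the signalling regulator Rgs5 differed from each other in M+133+ cells. Pdgfrb encodes the receptor that binds platelet-derived growth factor B and keeps pericytes on vessels. It stood at 4.10, 3.79, 3.92 and 3.44 in M-133- DDC samples, against 0.87 and -0.30 in M-133- untreated samples. Its M+133+ levels were -1.66, -6.43, -4.81 and -2.56 after DDC, against -4.83, -5.12, -9.12 and -4.32 in untreated samples. All M+133+ samples lay below all M-133- samples. Rgs5 encodes a regulator of G-protein signalling that is a common pericyte marker. It was at 4.09, 3.59, 4.83 and 4.48 in M-133- DDC samples, against 1.40 and -0.02 in M-133- untreated samples. In M+133+ cells it was -0.21, 2.71, 1.31 and 1.39 after DDC, against 1.85, 3.13, 3.98 and 3.80 in untreated samples. Rgs5 was thus the only one of the 10 genes that every untreated M+133+ sample held above every untreated M-133- sample.

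**Figure D2:**
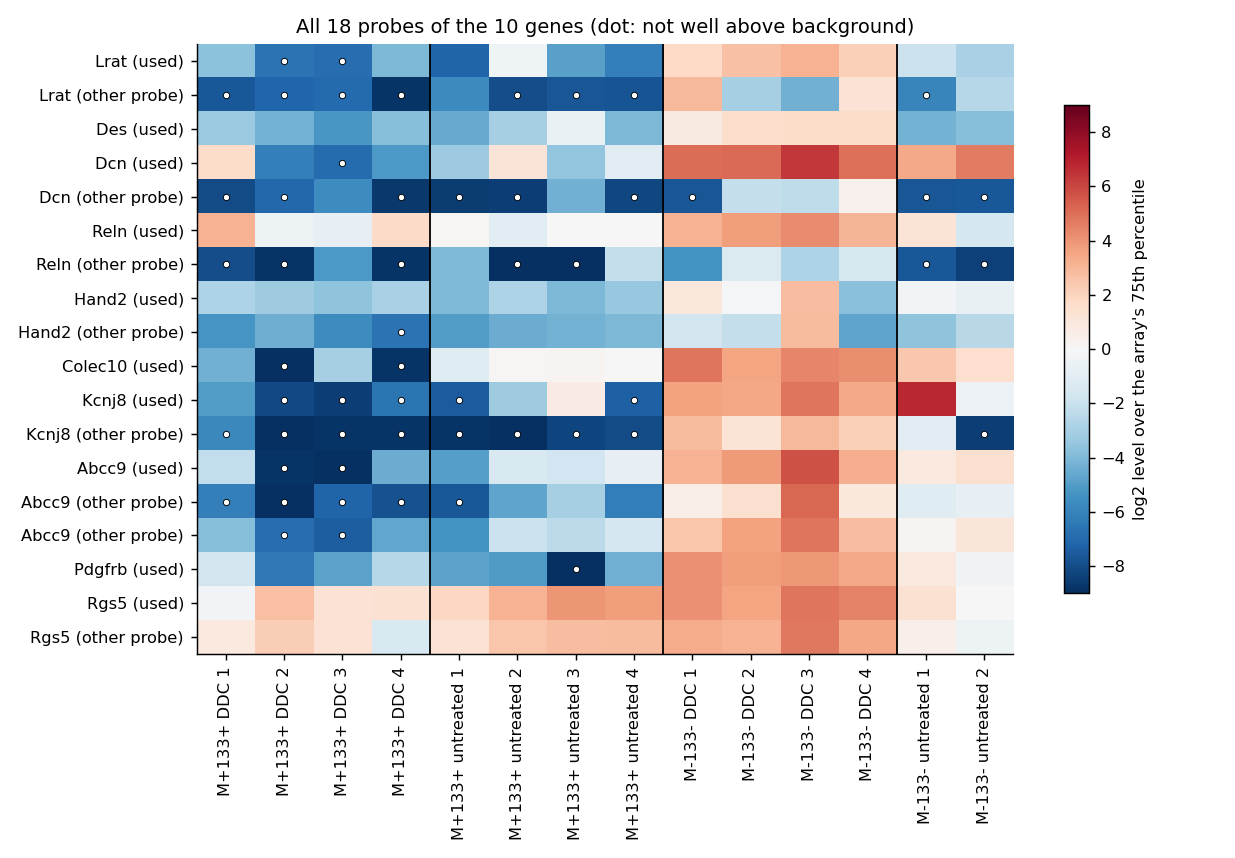
All 18 probes of the 10 genes (rows) in the 14 samples (columns); colour gives the log2 level over the array's 75th percentile, and a dot marks a reading not well above background. The M-133- DDC columns are the brightest, and the other probes of Lrat, Dcn, Reln and Kcnj8 are dim in samples where the brighter probe is not.

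By median SD, the 10 genes varied less among the M-133- DDC samples than in any other group of 4. Their median SD was 0.58 there, against 1.04 over all genes tested, but Hand2 had an SD of 2.75. In the M+133+ DDC group the median SD was 1.76, against 1.04 over all genes, and in the M+133+ untreated group 1.82, against 0.76. Kcnj8 was well above background in 1 of the 4 M+133+ DDC samples, and Lrat, Colec10 and Abcc9 in 2. The spread there thus rests in part on readings near background. Single samples moved with many of the genes at once. M+133+ DDC sample 1 was the highest of its group for 8 of the 10, and M-133- DDC sample 3 was the highest of its group for 8 of the 10. The median over the 10 genes was -2.51 in M+133+ DDC sample 1 and between -6.28 and -3.94 in the other 3. It ran from -4.27 to -1.16 in M+133+ untreated samples, from 3.32 to 4.34 in M-133- DDC samples and from -0.40 to 1.05 in M-133- untreated samples.

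The first comparison asked how M-133- cells of DDC-fed mice differ from those of untreated mice. Des and Rgs5 rose, and all 10 genes had a higher mean after DDC. Des averaged 1.41 ± 0.41 after DDC and -4.07 ± 0.30 in untreated samples (SD, n = 4 and 2), a difference of 5.48 (SE 0.98), or 44.7-fold, with an adjusted p of 0.0146. Rgs5 averaged 4.25 ± 0.53 and 0.69 ± 1.01, a difference of 3.56 (SE 0.75), or 11.8-fold, with an adjusted p of 0.0373. The test throughout is limma's moderated test, two-sided, with Benjamini-Hochberg adjustment over the 24165 genes. Thus 2 of the 10 genes were called higher and 0 lower, against 0.583% of all genes called higher and 0.96% called in either direction. In RNA from a mixture of cells, more cells of a type and more RNA per cell cannot be told apart.

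The other 8 genes had positive differences that did not pass the test. Lrat differed by 4.84 (SE 1.50, adjusted p 0.165), Reln by 3.75 (SE 1.00, adjusted p 0.107) and Pdgfrb by 3.53 (SE 1.36, adjusted p 0.272). The differences of Abcc9 (2.85), Colec10 (2.28), Dcn (1.31), Kcnj8 (0.70) and Hand2 (0.45) had adjusted p between 0.525 and 0.931. By the brightest probe of each gene, in 8 of the 10 every DDC sample lay above both untreated samples, the exceptions being Hand2 and Kcnj8, whereas 6.88% of all genes showed this. The DDC samples also entered the differences in view when the genes were proposed. Comparisons of the 10 with all genes, here and below, are therefore a description and not a test. The median difference of the 10 genes was 3.19, against -0.38 over all genes tested, and all 10 were positive under each scaling tried. With normexp background correction the median over all genes moved to -0.81 and that of the 10 to 3.12, and with quantile normalization they were 0.05 and 2.93. The second probes gave a called difference of 6.99 for Kcnj8 (SE 1.54, adjusted p 0.0478) and of 3.69 for Rgs5 (SE 0.82, adjusted p 0.0483), with the adjustment over all 35770 probes, a fit chosen after the data were seen. The further probes of Lrat, Dcn, Reln, Hand2 and Abcc9 were not called in that fit, with adjusted p between 0.225 and 0.719. The Kcnj8 value rests in part on -8.48 in untreated sample 2, a reading not well above background.

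The call of Des rested on each of the untreated samples, and that of Rgs5 ended in 9 of the 14 cases in which 1 sample was left out. Without untreated sample 1 or without sample 2, the adjusted p was 0.122 or 0.0602 for Des and 0.083 or 0.238 for Rgs5, within ranges over 25 alternatives of 0.00481 to 0.122 and of 0.019 to 0.238. On the 2 slides that held both groups, Des differed by 5.08 (1 sample against 1) and by 6.32 (2 against 1), and Rgs5 by 2.70 and 2.64. With slide as a block the call of Des remained, and Rgs5 had an adjusted p of 0.19. Kcnj8 differed by -3.15 on the first of these slides and by 3.75 on the second. In the authors' deposited table, the signed fold of the 10 Des spots ran from 29.4 to 55.6 at false discovery rates of 0% to 5.64%, and that of the 2 Rgs5 probes was 11.3 and 12.2 at 14.2% and 6.91%.

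The second comparison asked the same of M+133+ cells. Colec10 fell, and it was the only 1 of the 10 genes called in this comparison, against 0.0952% of all genes called lower and 0.232% in either direction. It averaged -6.27 ± 3.06 after DDC and -0.20 ± 0.61 in untreated samples (SD, n = 4 each), a difference of -6.07 (SE 1.10, adjusted p 0.039). It was well above background in 2 of the 4 DDC samples and in all 4 untreated samples. Every DDC sample lay below every untreated sample for Colec10, as for 4.15% of all genes, and the groups overlapped for the other 9. Abcc9 differed by -3.92 (SE 1.36, adjusted p 0.251), Rgs5 by -1.89 (SE 0.61, adjusted p 0.227) and Pdgfrb by 1.98 (SE 1.11, adjusted p 0.505). In all, 7 differences were negative and 3 positive, and their median was -1.51, against 0.06 over all genes. It was -0.90 without untreated sample 3, and -2.15 and -0.36 within the 2 slides that held both groups. The positive ones were those of Pdgfrb, Reln (1.12) and Hand2 (0.42).

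On the 2 slides that held both groups, Colec10 differed by -6.81 (2 samples against 2) and by -5.84 (2 against 1), and with slide as a block its adjusted p was 0.164. The call ended in 10 of the 14 cases in which 1 sample was left out, among them each of the 4 untreated M+133+ samples (adjusted p 0.061, 0.0654, 0.119 and 0.131). Over 25 alternatives the adjusted p ran from 0.0087 to 0.164. The authors' deposited table gave a signed fold of -50 at a false discovery rate of 5.72%.

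**Figure D3:**
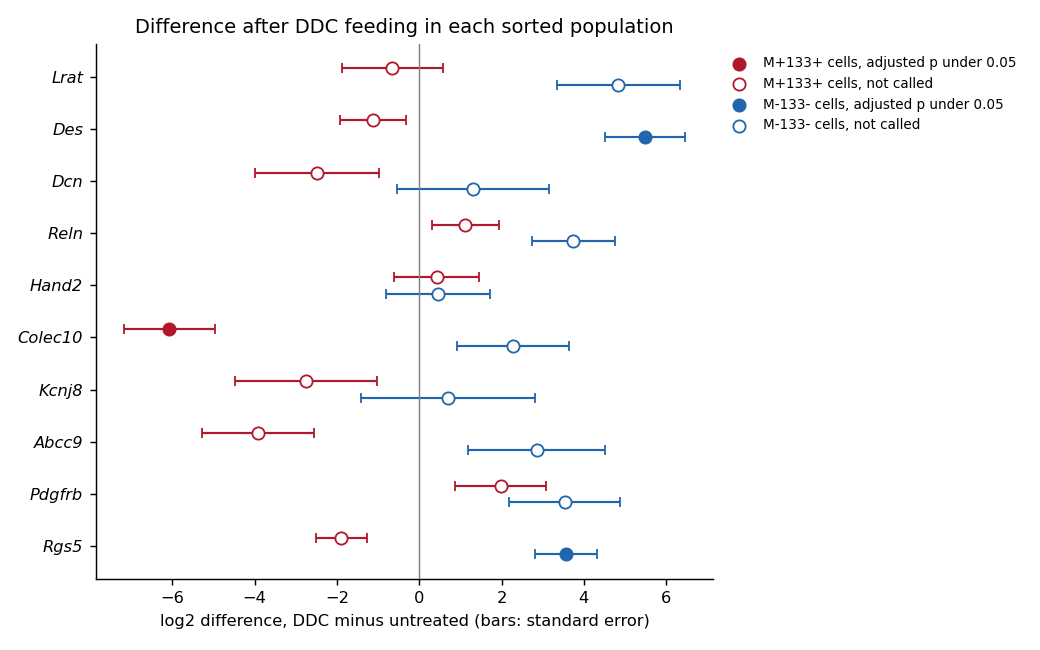
Log2 difference between DDC and untreated samples for each gene, in M+133+ cells (red, upper of each pair) and M-133- cells (blue, lower); bars are standard errors, and filled points passed an adjusted p of 0.05. Des at 5.48 and Rgs5 at 3.56 are filled for M-133- cells and Colec10 at -6.07 for M+133+ cells.

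The test of the difference itself, the DDC difference in M+133+ cells minus that in M-133- cells, called Des and Rgs5. It was -6.61 for Des (SE 1.26, adjusted p 0.0452) and -5.45 for Rgs5 (SE 0.97, adjusted p 0.0364). These 2 of 10 compare with 0.186% of all genes called negative and 0.248% called in either direction, again as a description, since the DDC samples entered the choice of the genes. For Rgs5 the 2 populations had differences of opposite sign, -1.89 in M+133+ and 3.56 in M-133- cells, whereas Des differed by -1.13 in M+133+ cells, with an adjusted p of 0.625. Colec10 had the most negative value of the 10, -8.35 (SE 1.75, adjusted p 0.0731), and Hand2 was at -0.03 (SE 1.63, adjusted p 0.998). All 10 values were negative, with a median of -4.62, against 0.40 over all genes, but that of Hand2 was 0.10 after quantile normalization. Since this test uses the same samples as the 2 comparisons above, it is not a separate line of evidence, and over 25 alternatives the adjusted p ran from 0.0307 to 0.168 for Des and from 0.0235 to 0.31 for Rgs5. The call of Des ended when any 1 of the 14 samples was left out, and that of Rgs5 in 10 of the 14 cases.

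Between the sorted populations after DDC, all 10 genes were lower in M+133+ cells, which describes the pattern the genes were proposed for. Lower levels there were not particular to them. Of hepatocyte, endothelial and erythroid markers, 10 of 11, 11 of 12 and 4 of 8 were called lower, against 6.19% of all genes. Of macrophage markers 0 of 12 were called, and 9 of 10 bile duct markers were called higher, against 6.09% of all genes. Kcnj8 differed by -10.89 (SE 1.73), Colec10 by -10.51 (SE 1.10), Abcc9 by -10.12 (SE 1.36) and Dcn by -9.49 (SE 1.51). Lrat was at -7.74 (SE 1.22), Pdgfrb at -7.68 (SE 1.11) and Des at -5.58 (SE 0.80). Hand2, Rgs5 and Reln differed least, by -3.12 (SE 1.03), -2.95 (SE 0.61) and -2.66 (SE 0.82). The groups did not overlap for 8 of the 10, and did for Reln and Hand2, where all genes gave 6.82% in this direction. Kcnj8 was well above background in 1 of the 4 M+133+ DDC samples, Lrat, Colec10 and Abcc9 in 2, and Dcn in 3, so that the sizes of these 5 differences rest in part on readings near background and have no order among themselves. No slide held both groups, so no within-slide value could be had, and with slide as a block in the fit over all samples the median of the 10 was -7.40, against -7.71 without it.

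In untreated livers the same genes did not all order the populations alike. Kcnj8 (-7.45, SE 2.12), Pdgfrb (-6.13, SE 1.36), Dcn (-5.70, SE 1.85), Abcc9 (-3.35, SE 1.66), Hand2 (-3.09, SE 1.26), Lrat (-2.24, SE 1.50) and Colec10 (-2.16, SE 1.35) were lower in M+133+ cells. By its brighter probe Kcnj8 was well above background in 2 of the 4 untreated M+133+ samples. Its difference ran from -11.09 to -3.80 over 25 alternatives and was -3.84 by the other probe. Reln was at -0.03 (SE 1.00) and Des at 1.03 (SE 0.98), and Rgs5 was higher in M+133+ cells by 2.50 (SE 0.75). Without overlap, 5 genes lay lower and 1 higher, where 18.3% and 15.3% of all genes did so in groups of 4 and 2. Of hepatocyte and endothelial markers, 9 of 11 and 10 of 12 were called lower in untreated M+133+ cells, against 5.02% of all genes. All 10 bile duct markers were called higher, against 3.48%. On the 2 slides that held both groups, each with 1 array against 1, Rgs5 differed by 0.17 and 5.40 and Lrat by -8.28 and -0.18. The M-133- arrays of these slides were the 2 repeats of untreated sample 2. The 2 slides are therefore not independent, and M-133- untreated sample 1 entered neither. On those repeats Lrat stood at 0.14 and -5.99 and Rgs5 at 1.56 and -1.61. The order of the group means was M-133- DDC first for all 10 genes. M+133+ DDC was the lowest group for Lrat, Des, Dcn, Colec10, Kcnj8 and Abcc9.

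Of a list of 20 further stellate genes, 3 were called higher and 0 lower after DDC in M-133- cells, against 0.583% of all genes called higher. All 20 differences were positive, with a median of 2.36, against -0.38 over all genes, and 17 did not pass the test. Hhip, a membrane protein that binds hedgehog ligands, rose by 5.79 (SE 1.04, adjusted p 0.0154). Ngfr, the low-affinity neurotrophin receptor, rose by 5.01 (SE 1.07, adjusted p 0.0392), and Steap4, a metalloreductase, by 4.13 (SE 0.87, adjusted p 0.0361). Lhx2, a homeobox factor known for holding stellate cells quiescent in mice, differed by 6.34 with an adjusted p of 0.0785, and Pth1r by 4.78 with an adjusted p of 0.0531. The glial filament gene Gfap differed by 0.71 (adjusted p 0.906). Of the 20, 0 were called in M+133+ cells, 13 differences were positive, and the median was 0.36. After DDC all 20 differences between populations were negative, and 14 of the 20 were called lower in M+133+ cells, against 6.19% of all genes. The called genes were led by Lhx2 (-8.03, adjusted p 0.000755) and Cygb (-7.87, adjusted p 0.000194), the globin of stellate cells. In untreated livers 19 of the 20 differences were negative, and 2 were called lower in M+133+ cells, against 5.02% of all genes. The called genes were Hgf, hepatocyte growth factor (-6.44, adjusted p 0.00325), and Cygb (-5.70, adjusted p 0.0129).

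Other genes of pericytes and smooth muscle had a lower median difference than the 10. Of 14 genes measured, 1 was called after DDC in M-133- cells, against 0.583% of all genes called higher and 0.96% in either direction. This was Rgs4, higher by 5.48 (SE 0.85, adjusted p 0.0063). The median difference of the 14 was 0.26, against -0.38 over all genes. Rgs4, like Rgs5, encodes a regulator of G-protein signalling, and its interaction was -5.71 (SE 1.10, adjusted p 0.0456). Acta2, smooth muscle actin, lay between 4.58 and 5.74 in all 14 samples and differed by 0.00 (SE 0.29, adjusted p 0.999) after DDC in M-133- cells. The smooth muscle myosin gene Myh11 and the pericyte genes Cspg4 and Notch3 differed by 0.15, -0.42 and 0.67 there, with adjusted p of 0.971, 0.9 and 0.906, and Tagln, transgelin, by 2.72 (adjusted p 0.256).

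**Figure D4:**
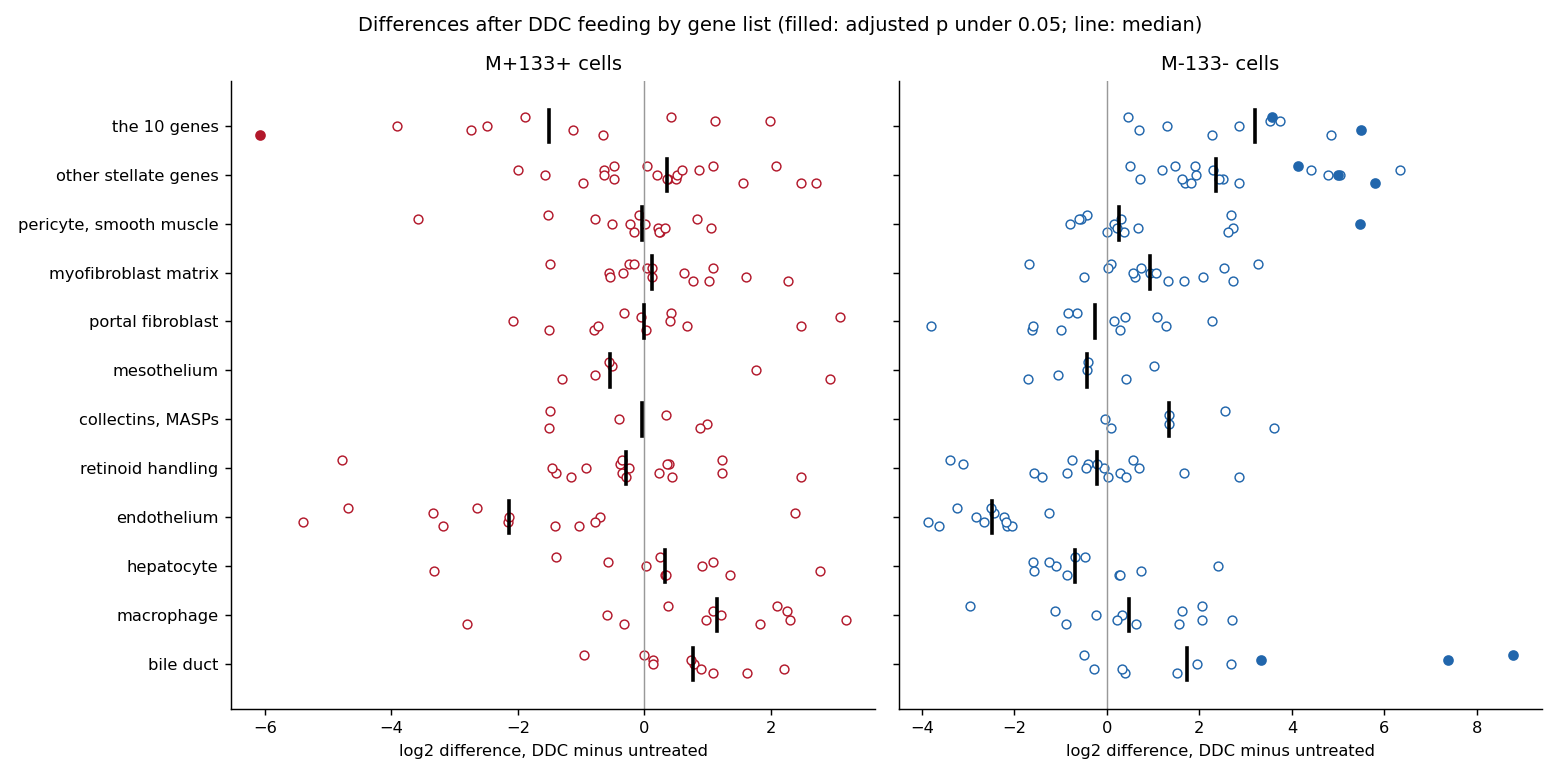
Log2 difference between DDC and untreated samples for each gene of 12 lists, in M+133+ cells (left) and M-133- cells (right); points are genes, filled where the adjusted p was under 0.05, and black lines are medians. In M-133- cells the 10 genes (median 3.19) and the 20 other stellate genes (median 2.36) lie to the right and the endothelial markers (median -2.47) to the left.

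Of 15 matrix genes of activated stellate cells and myofibroblasts, 0 were called after DDC in M-133- cells, with 13 positive differences and a median of 0.94, against -0.38 over all genes. The collagen genes Col1a1, Col1a2 and Col3a1 differed by 1.67 (adjusted p 0.757), 0.61 (adjusted p 0.93) and 0.56 (adjusted p 0.861). Between populations, 13 of the 15 differences were negative after DDC and 12 in untreated livers. Called lower in M+133+ cells were 10 of the 15 after DDC, against 6.19% of all genes, and 8 in untreated livers, against 5.02%. Among them were Postn, periostin (-8.99 after DDC, adjusted p 8.08e-06), and Col5a2 (-6.95 after DDC, adjusted p 0.00193, and -6.62 untreated, adjusted p 0.0151). Of the portal fibroblast genes, 0 of 12 were called after DDC in M-133- cells, where their median was -0.25. Of these 12, 6 were called lower in M+133+ cells in each treatment, against the same 6.19% and 5.02% of all genes. Negative differences numbered 8 after DDC and 10 in untreated livers. The called genes were led after DDC by Eln, elastin (-8.96, adjusted p 3.4e-05), and Thy1 (-7.56, adjusted p 3.39e-05).

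Genes that share a family with single members split in their own ways. Of 10 other small leucine-rich proteoglycans, the family of Dcn, 0 were called after DDC in either population. Of these 10, 5 were called lower in M+133+ cells in each treatment, against 6.19% of all genes after DDC and 5.02% in untreated livers. Negative differences between populations numbered 8 after DDC and 10 in untreated livers. Of 17 genes of vitamin A and lipid droplet handling, the pathway of Lrat, 0 were called after DDC in either population. The 6 collectins and their serine proteases, relatives of Colec10, were all called lower in M+133+ cells after DDC, where 6.19% of all genes were. Their median was -7.13, against 0.30 over all genes. Among them Colec11, the partner of Colec10 in collectin heteromers, was lower by -7.55 (adjusted p 5.46e-05), with differences after DDC of 3.60 in M-133- cells (adjusted p 0.147) and of -1.50 in M+133+ cells (adjusted p 0.526). Kcnj11 and Abcc8, the channel subunits of pancreatic beta cells, were called in 0 of the 5 comparisons. Of the 5 other filament genes, relatives or partners of Des, 0 were called after DDC, and between populations they went both ways. Vim, vimentin, was lower in M+133+ cells after DDC by -5.40 (adjusted p 0.00072), and Cryab, the chaperone that binds desmin filaments, was higher there by 3.47 (adjusted p 0.00201) and in untreated livers by 3.69 (adjusted p 0.00811). The median of the 5 between populations was 0.73 after DDC and 0.54 in untreated livers.

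Of 6 further genes of the platelet-derived growth factor family, 3 were called higher and 1 lower in M+133+ cells after DDC. In untreated livers 2 were called higher and 1 lower. Of all genes, 6.09% and 6.19% were called so after DDC, and 3.48% and 5.02% in untreated livers. Pdgfc and Pdgfd, which encode ligands, were higher in M+133+ cells after DDC by 4.96 (SE 0.86, adjusted p 0.00134) and 8.50 (SE 1.56, adjusted p 0.00205), and Pdgfb by 4.99 (SE 0.90, adjusted p 0.00175), where 6.09% of all genes were called higher. The receptor gene Pdgfra was lower in M+133+ cells by -6.68 (SE 1.14, adjusted p 0.00123), the side on which Pdgfrb also lay. Pdgfa, a further ligand, rose after DDC in M-133- cells by 2.71 (SE 0.44, adjusted p 0.00808), to between 2.80 and 3.63 after DDC, against 0.23 and 0.93 in untreated samples, and between populations after DDC it differed by 0.76 (adjusted p 0.198). In untreated livers Pdgfa was higher in M+133+ cells by 3.76 (SE 0.44, adjusted p 0.000129) and Pdgfc by 8.09 (SE 1.05, adjusted p 0.000294). Of all genes, 3.48% were called higher there. Pdgfra was lower there by -5.94 (adjusted p 0.0156), and Pdgfb and Pdgfd differed by 2.72 and 6.31 (adjusted p 0.172 and 0.0559). Pdgfrl, a receptor-like gene, was called in 0 of the 5 comparisons, with differences between -2.25 and 0.46.

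Among the receptors and the adaptor of reelin, Vldlr and Lrp8, which encode the reelin receptors, were higher in M+133+ cells after DDC by 5.85 (SE 1.03, adjusted p 0.00152) and 4.36 (SE 1.19, adjusted p 0.0259). Dab1, the intracellular adaptor that binds both receptors, rose after DDC in M-133- cells by 5.00 (SE 0.82, adjusted p 0.00884) and had an interaction of -6.75 (SE 1.06, adjusted p 0.0194). It lay between 0.53 and 2.23 in M-133- DDC samples, against -5.38 and -2.28 in M-133- untreated samples. In untreated livers Dab1 was higher in M+133+ cells by 6.64 (SE 0.82, adjusted p 0.000197).

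Of 12 mesenchymal and cardiac transcription factors measured beside Hand2, only Tbx20 was called after DDC in M-133- cells. Of all genes, 0.583% were called higher there and 0.96% in either direction. Tbx20, a T-box factor of heart development, rose by 6.20 (SE 1.08, adjusted p 0.0121) to between -1.15 and -0.21, against -7.70 and -6.26 in untreated samples, and its interaction was -7.35 (SE 1.39, adjusted p 0.0434). It was well above background in 1 of the 2 untreated M-133- samples and in 0 of the 4 M+133+ DDC samples. Between populations after DDC, 5 of the 12 were called lower in M+133+ cells and 1 higher, against 6.19% and 6.09% of all genes. In untreated livers 4 of the 12 were called lower and 1 higher, against 5.02% and 3.48%. There Mef2c was lower in M+133+ cells by -8.48 (adjusted p 0.00038), and Gata6 was the 1 called higher, by 3.84 (adjusted p 0.0293).

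The 10 genes that are not among the members but came closest to their mean profile were ranked by the root mean square difference of centred levels over the 14 samples. C1qtnf5, a secreted C1q-domain protein, came first at 0.78. It averaged -4.02 in M+133+ DDC, -2.92 in M+133+ untreated, 2.44 in M-133- DDC and -1.03 in M-133- untreated samples. Next came Mrc2, a collagen-binding endocytic receptor, at 1.03, Fcna, ficolin A, at 1.07, Ccdc80 at 1.08, Colec11 at 1.12 and Rgs4 at 1.12. Col2a1 (1.17), P2ry14 (1.18), Glyat (1.19) and 1 transcript with only an Ensembl name completed the list. Of the 10 themselves Lrat was nearest their mean at 1.31 and Des next at 1.62, and Rgs5 (2.59) and Kcnj8 (2.87) were farthest. This ranking describes these samples, all of which chose the genes.

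Markers of other cell types also differed between the groups, and their part in the results above was not tested. After DDC in M-133- cells all 12 endothelial markers had negative differences, with 0 called, and their summed signal was 22.4 to 134 times the 75th percentile after DDC, against 392 and 576 times in untreated samples. Bile duct markers summed to between 14.5 and 68.3 times in M-133- DDC samples, against 1.07 and 2.42 times in M-133- untreated samples, and 3 of 10 were called higher, against 0.583% of all genes, led by Spp1 (8.78, adjusted p 9.96e-05) and Tspan8 (7.38, adjusted p 0.000671). Hepatocyte markers summed to between 331 and 668 times after DDC, against 474 and 987 times in untreated M-133- samples, with 0 of 11 called. Macrophage and erythroid markers overlapped between the treatments in M-133- cells, with 0 of 12 and 0 of 8 called. No marker of these 5 lists was below background in every M-133- sample of either treatment. The 10 genes summed to between 119 and 265 times in M-133- DDC samples, against 136 and 34.6 times in M-133- untreated samples, where Kcnj8 made the first value high.

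In M+133+ cells, where Colec10 fell, the endothelial markers summed to between 1.32 and 5.72 times after DDC, against 5.32 to 19.7 times in untreated samples, with 11 of 12 differences negative and 0 called. Hepatocyte markers summed to between 68.1 and 119 times after DDC, against 50.5 to 84.7 times in untreated samples, with 0 of 11 called. The 20 other stellate genes summed to between 15 and 91.7 times after DDC, against 6.21 to 20.6 times in untreated samples.

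**Figure D5:**
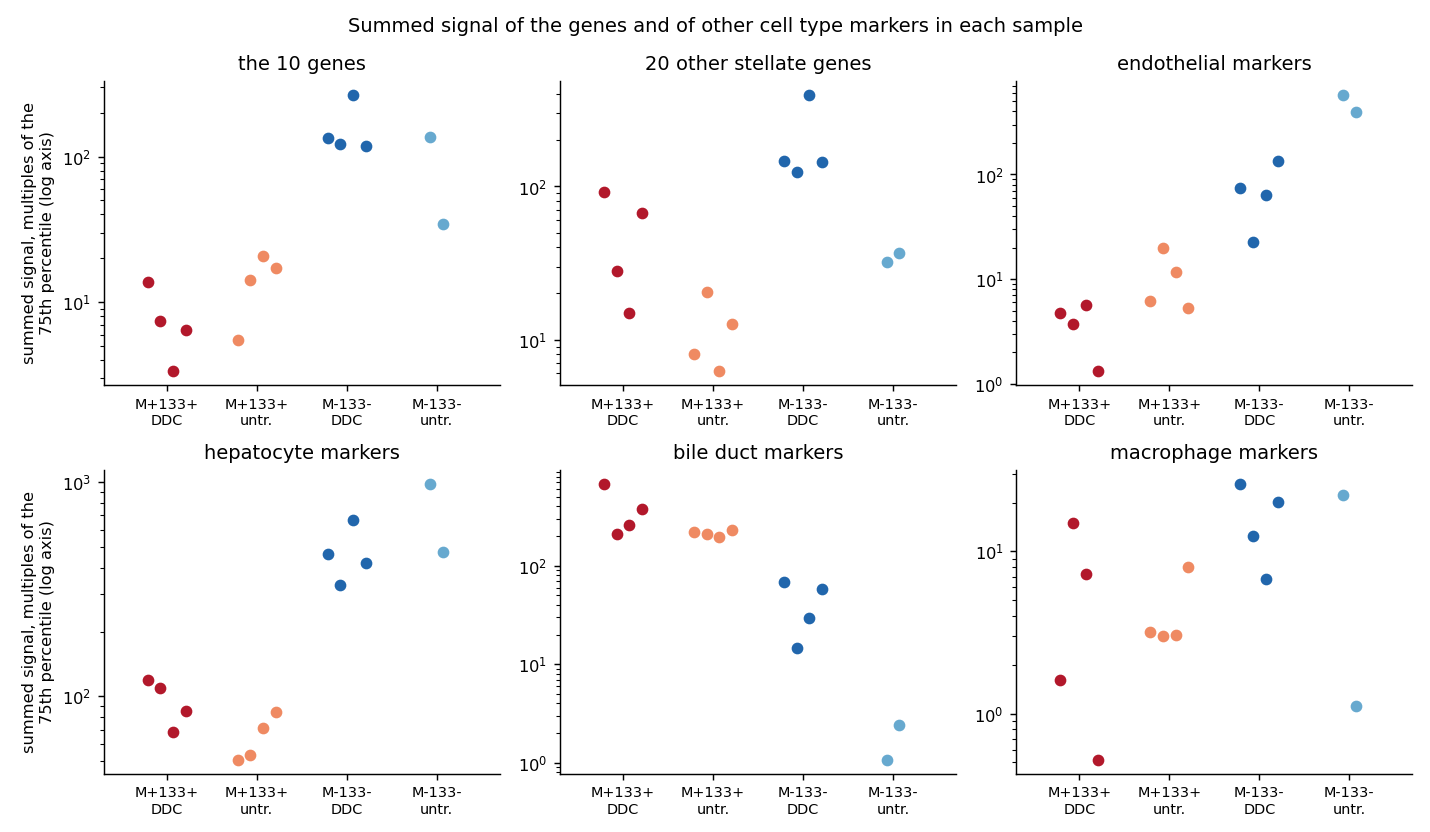
Summed signal of the 10 genes, of the 20 other stellate genes and of 4 sets of cell type markers in each sample, as multiples of the array's 75th percentile on a log axis (1 point per sample). Endothelial markers are lower in the M-133- DDC samples (22.4 to 134) than in the untreated M-133- samples (392 and 576), and bile duct markers are higher.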

How the data were processed

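RNA from sorted liver cells was amplified and hybridised to 16 one-colour Agilent mouse arrays, holding 14 samples. Processed signal intensities had been made by the authors' scanner software, Agilent Feature Extraction 10.5.1.1, per the file headers, with background subtraction and no scaling between arrays. The authors' deposited table of comparisons gives a signed fold (entered here as a score) and a false discovery rate in percent, and per the submitters' processing notes limma was among the tools.

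Flagged outlier spots were left out and each array's 75th percentile of log2 signal was subtracted. Spots of a probe, then repeat arrays of a sample, were averaged. A probe was kept when well above background in at least 0.5 of the samples of 1 group, and the brightest kept probe stood for its gene. All 14 samples entered 1 model per gene, fitted by lmFit and eBayes with an intensity trend (limma 3.58.1, R 4.3.3), adjusted over 24165 genes, with calls at an adjusted p under 0.05. The fit was tested on simulated data. Gene names are those of the array design (mm9). Alternatives were normexp (offset 50), quantile normalization, no filter, the mean of probes, no trend, slide and replicate blocks, and each sample left out. The number of arrays limits the precision, and 0 spots of these genes were saturated.

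The members and gene lists were chosen with earlier results of these data known. Named were the 10 genes, up to 2 called genes of each list and comparison with the largest difference, every gene of a list of 6 or fewer where described, defining markers, and the 10 nearest profiles. Steap4, Gata6, Col1a1 and Col3a1 were chosen after their values were seen.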

Additional observations from a re-analysis of the deposited data

Results flagged for a closer look

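Of 30 tests for a sample standing apart in a group of 4, 4 met the limit of 0.829 for the gap over the range, and chance gives about 1 in 20. Des was at 0.79 in M-133- DDC sample 1, below the other 3. Dcn was at 6.33 and Kcnj8 at 4.83 in M-133- DDC sample 3, which was the highest of its group for 8 of the 10 genes. Pdgfrb was at -9.12 in M+133+ untreated sample 3, below the other 3. The DDC difference of 2 genes differed between the sorted populations by the test of the difference itself. For Des that difference was -6.61 (limma, adjusted p 0.0452) and for Rgs5 it was -5.45 (adjusted p 0.0364).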

How the results depend on the processing

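Of 750 repeats of single-gene results with a test, 664 kept their direction and side of the threshold, 66 lost the call, 4 gained it and 16 reversed. With 232 genes called after DDC in M-133- cells, 119 were called under the replicate block, 150 with slide as a block and 78 to 273 with 1 sample left out. In M+133+ cells 56 were called, against 86 with normexp, 108 with quantile normalization, 89 with the mean of probes, 22 without the trend, 6 under the replicate block, 23 with slide as a block and 6 to 115 with 1 sample left out. For the interaction 60 were called, against 37 with normexp, 37 without the trend, 22 under the replicate block, 11 with slide as a block and 18 to 96 with 1 sample left out. Between populations after DDC 2967 were called, and 1124 with slide as a block; in untreated livers 2053, and 832 to 2242 with 1 sample left out. The median of the 10 genes ran from -6.08 to -3.56 for the interaction with 1 sample left out. It was -6.36 between populations after DDC with normexp. In untreated livers it was -5.55 within slide 2 and -1.51 within slide 4, against -2.67 over all samples. The M-133- untreated arrays of both slides were repeats of 1 sample. Reversals were those of Lrat in M+133+ cells (0.12 with slide as a block, -1.50 to 0.77 with 1 sample left out), and of Reln (-0.23) and Hand2 (-0.31) there with the mean of probes. Hand2 in M-133- cells ran from -0.48 to 1.69 and Kcnj8 from -2.95 to 4.34 with 1 sample left out. The interaction of Hand2 was 0.10 with quantile normalization, 0.16 with the first repeat array, 0.020 with title numbers as a block and -1.27 to 0.91 with 1 sample left out, and that of Kcnj8 ran from -7.09 to 0.20. The cause was not tested. Same-numbered samples did not deviate together (r from -0.154 to 0.113). In groups of 4 and 2 this cannot tell whether a shared number marks a shared mouse, and the main fit used no pairing. Under the replicate block 0 of the 10 genes were called.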
